A study of Populus tremula x Populus alba with 6 samples.

Results

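Phytochromes are the red and far-red light receptors of plants, and the poplar genes PHYA (Potri.013G000300), PHYB1 (Potri.008G105200) and PHYB2 (Potri.010G145900) were taken by these identifiers, and the names, which the count files do not hold, were not checked against an annotation. All 3 were present among the 32049 genes listed, and all 3 passed the filter on low counts. Transcripts were measured by stranded RNA sequencing in the shoot apex of 6 hybrid poplars (Populus tremula x Populus alba, genotype 717-1B4), as bulk tissue that holds the meristem and the youngest leaves. The 3 CTRL plants were wild type, and the 3 RNAi plants carried a knock-down construct against DDM1, which encodes a chromatin remodelling ATPase required for the upkeep of DNA methylation. Plants of both groups grew on compost at 21 °C and 32% humidity with 16 h of light. They had been through 3 weeks without sufficient water and then 1 week of renewed watering. The comparison therefore holds no plant that was watered throughout. Neither the promoter of the construct nor the number of transformed lines is stated in the labels. The series' design text calls the 3 plants of each group biological replicates.

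A phytochrome switches between a form that absorbs red light and a form that absorbs far-red light. In the active form it moves into the nucleus, where it promotes the removal of transcription factors that drive growth in the dark or in shade. In Arabidopsis, phyA protein accumulates in the dark, is broken down in the light and mediates far-red responses, whereas phyB is light-stable and governs responses to red light and shade. Poplars carry a pair of PHYB paralogs from the genome duplication shared by poplars and willows. In aspens and their hybrids PHYA has been tied to the sensing of day length, and PHYB2 variants to the timing of bud set.

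Genes were counted on the strand of their transcript, with between 12399644 and 17165295 gene counts in a library. The TMM scaling factors, which correct for differences in library composition, ranged from 0.933 in CTRL 1 to 1.07 in CTRL 2. CTRL 1 also had the fewest counts. On the principal components of all other tested genes, RNAi 2 stood apart on the first (63.75, against scores from -34.1 to 8.88 in the other libraries), and CTRL 1 was the lowest on the second (-44.2). DDM1 itself and markers of the shoot apex were not analysed here, because the files pair no identifiers with names. The knock-down and the tissue therefore rest on the labels.

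None of the 3 phytochrome genes was called changed between RNAi and wild-type apices. In the same test 0.00400% of the 24991 genes tested were called, which is 1 gene. The other tests called none of the 3 either, among 0.130% of all genes by DESeq2, 0.244% by edgeR's likelihood ratio test and 0.00800% by limma-voom. The fitted levels of RNAi relative to CTRL were 1.02-fold for PHYA, 1.08-fold for PHYB1 and 0.996-fold for PHYB2. A change of 2-fold in either direction lay outside the 95% interval of each gene, which comes from the fitted model and is not adjusted for the number of genes. The levels of the groups overlapped for all 3 genes, as for most genes, since 11.8% of all tested genes had groups that did not overlap. In bulk tissue, fewer cells that express a gene and less RNA per cell cannot be told apart.

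For PHYA, the far-red sensor, the CTRL libraries gave 454, 601 and 566 counts and the RNAi libraries 601, 504 and 730, each in the order 1, 2 and 3. Scaled to sequencing depth, its level was 39.3, 41.3 and 34.8 CPM (counts relative to the scaled library size) in CTRL 1, 2 and 3, and 43.4, 32.3 and 42.1 CPM in RNAi 1, 2 and 3. The highest and the lowest library were both RNAi libraries, so the RNAi range enclosed the whole CTRL range. The group means were 38.5 ± 3.33 CPM in CTRL and 39.3 ± 6.09 CPM in RNAi (SD, n = 3 each). The log2 fold change was 0.03 ± 0.15 (SE), with a 95% interval from -0.31 to 0.37 and edgeR's quasi-likelihood test gave a Benjamini-Hochberg adjusted p of 0.975. In fold terms the interval ran from 0.807 to 1.29. Without RNAi 2, the library with the lowest PHYA level, the log2 fold change was 0.15 (adjusted p = 0.949 in edgeR).

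Over all 6 libraries PHYA had the narrowest range of the 3 genes, an order that rests on CTRL 1. Its highest level was 1.35 times its lowest, and its biological coefficient of variation (BCV, the spread between replicates beyond counting error) was 0.150, higher than that of 25.8% of the tested genes. Without CTRL 1 the highest level was 1.35 times the lowest for PHYA, 1.20 times for PHYB1 and 1.49 times for PHYB2, so that PHYB1 then had the narrowest range. The ranges were not tested as a difference between genes. The exact Poisson intervals of RNAi 2 (29.5 to 35.2 CPM) and RNAi 1 (40.0 to 47.1 CPM) did not overlap. These RNAi libraries thus differed by more than counting error.

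For PHYB1, on chromosome 8 by its identifier, the CTRL libraries gave 209, 397 and 445 counts and the RNAi libraries 360, 374 and 500. Its level was 18.1, 27.3 and 27.4 CPM in CTRL 1, 2 and 3 and 26.0, 24.0 and 28.8 CPM in RNAi 1, 2 and 3. CTRL 1 was the lowest library, and the other 5 lay close together, with RNAi 3 the highest. The means were 24.3 ± 5.34 CPM in CTRL and 26.3 ± 2.45 CPM in RNAi (SD, n = 3 each). The log2 fold change of 0.11 ± 0.18 (SE) had a 95% interval from -0.30 to 0.53, or 0.812-fold to 1.44-fold, and by the same edgeR test the adjusted p was 0.910. The small fitted excess in RNAi turned with CTRL 1, without which the log2 fold change was -0.05 (adjusted p = 0.937 in edgeR).

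For PHYB2, the paralog on chromosome 10, the CTRL libraries gave 241, 567 and 687 counts and the RNAi libraries 439, 443 and 725. Its level was 20.9, 39.0 and 42.3 CPM in CTRL 1, 2 and 3 and 31.7, 28.4 and 41.8 CPM in RNAi 1, 2 and 3. The CTRL plants held both the lowest and the highest value, and the RNAi plants lay between them. The means, 34.0 ± 11.5 CPM in CTRL and 34.0 ± 6.99 CPM in RNAi (SD, n = 3 each), were nearly the same. The log2 fold change was -0.01 ± 0.27 (SE), with a 95% interval from -0.62 to 0.61 (0.652-fold to 1.52-fold) and by the same edgeR test the adjusted p was 0.998. Without CTRL 1 it was -0.25 (adjusted p = 0.722 in edgeR), and without CTRL 3 it was 0.18 (adjusted p = 0.9998), so the direction of this near-zero value depended on single plants.

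**Figure D1:**
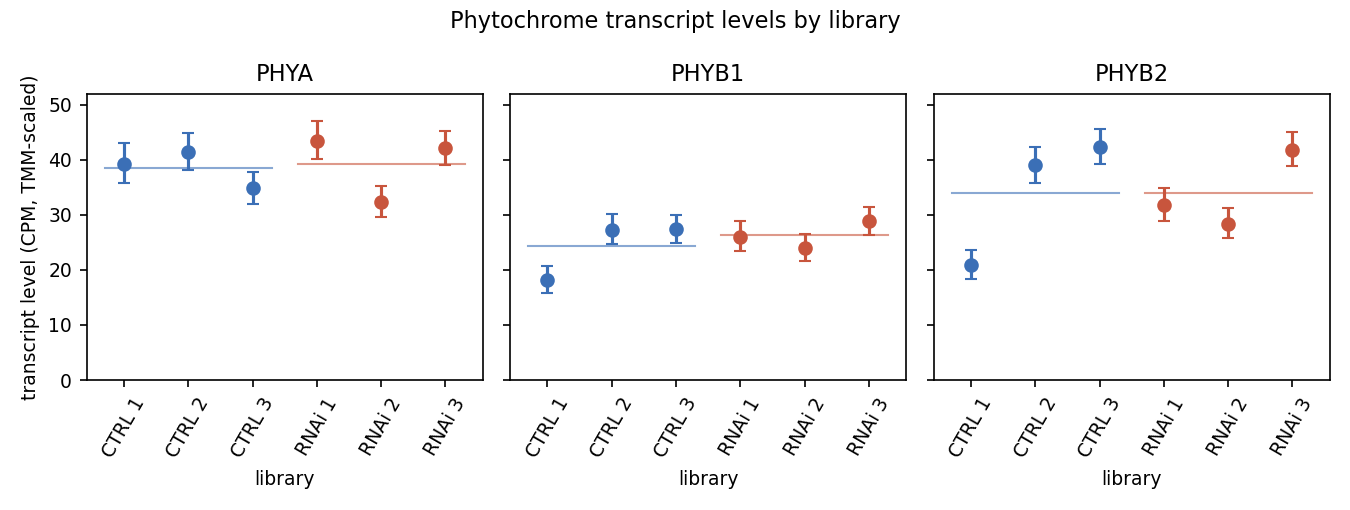
Levels of PHYA, PHYB1 and PHYB2 (y axis, CPM scaled with TMM factors) in each library (x axis), with exact 95% Poisson intervals that cover counting error only and a line at each group's mean. The CTRL (blue) and RNAi (red) libraries overlap for each gene, and CTRL 1 is the lowest library for PHYB1 (18.1 CPM) and PHYB2 (20.9 CPM).

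PHYB2 had the widest range between plants of the 3 genes, with and without CTRL 1. Its highest level was 2.03 times its lowest, against 1.59 times for PHYB1 and 1.35 times for PHYA. Its BCV of 0.239 was higher than that of 76.7% of the tested genes, whereas the 0.171 of PHYB1 was higher than that of 43.6% of them. The Poisson interval of PHYB2 in CTRL 1 (18.3 to 23.7 CPM) lay below those of CTRL 2 (35.8 to 42.3 CPM) and CTRL 3 (39.2 to 45.5 CPM). The difference among wild-type libraries was therefore larger than counting error, and larger than the difference between the group means.

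The PHYB paralogs had similar profiles over the plants. Over the 6 libraries the log2 CPM values of PHYB1 and PHYB2 had a Pearson correlation of 0.957 (exact two-sided permutation p = 0.00833, adjusted p = 0.075 over 9 relations) and a Spearman correlation of 0.943 (exact permutation p = 0.0167, adjusted p = 0.15). The relation thus did not pass the adjustment. Pearson's r was 0.934 without CTRL 1, 0.967 without RNAi 2 and 0.839 without both, the libraries with PHYB1 levels farthest from the median. With both genes centred on their group means, r was 0.988 (exact two-sided permutation within groups, p = 0.0278, the smallest that 36 arrangements allow, adjusted p = 0.0833 over the 3 pairs of phytochrome genes). Both genes share each library's scaling factor, and reads that match both paralogs equally would not have been counted for either. Of the other 24990 tested genes, 52 had a higher correlation with PHYB1 than PHYB2 had.

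**Figure D2:**
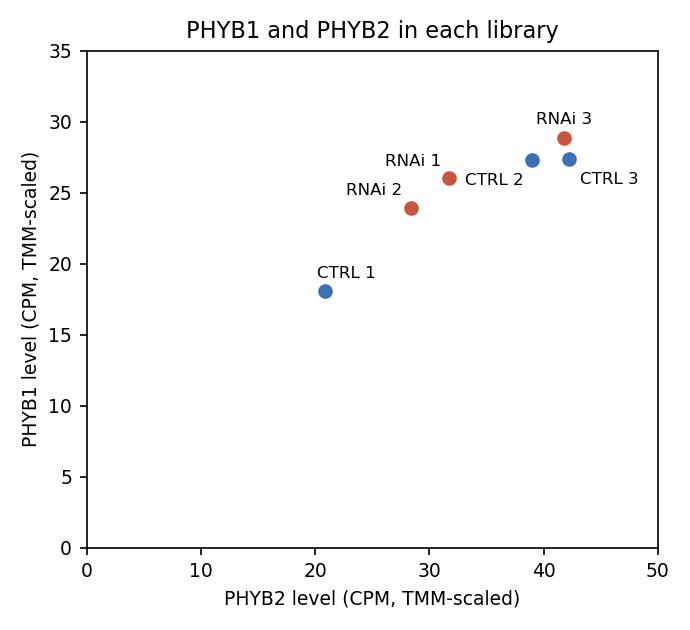
Level of PHYB1 (y axis, CPM) against that of PHYB2 (x axis, CPM), with 1 point for each library, CTRL in blue and RNAi in red. The libraries rise together from CTRL 1 (20.9 CPM of PHYB2 and 18.1 CPM of PHYB1) to CTRL 3 and RNAi 3, and the RNAi libraries lie among the CTRL libraries.

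For PHYA the correlations with the PHYB genes were lower, and the difference between the correlations was not tested. Its Pearson correlation was 0.156 with PHYB1 (exact permutation p = 0.717, adjusted p = 0.75) and 0.127 with PHYB2 (exact permutation p = 0.75, adjusted p = 0.75). The Spearman values were 0.314 (exact permutation p = 0.564, adjusted p = 0.903) and 0.143 (exact permutation p = 0.803, adjusted p = 0.903). Without CTRL 3 and RNAi 2, which had the lowest PHYA levels, Pearson's r was 0.796 and 0.659 over the 4 libraries left. Without CTRL 1 alone r was 0.6 and 0.315, and without RNAi 2 alone 0.101 and -0.118, so the pooled values depend on single libraries. Centred on the group means, r was 0.143 and 0.123 (exact permutation within groups, p = 0.722 and 0.667, adjusted p = 0.722 each). CTRL 1 shows the difference between the genes most plainly, since it had the lowest level of both PHYB genes but the fourth-highest level of PHYA.

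Beside the phytochrome levels, the second principal component of the other genes, which held 28.6% of their variance, ran from -44.2 in CTRL 1 to 34.6 in RNAi 3. Pearson's r with it was 0.836 for PHYB1 (exact permutation p = 0.0306, adjusted p = 0.125), 0.854 for PHYB2 (exact permutation p = 0.0417, adjusted p = 0.125) and 0.189 for PHYA (exact permutation p = 0.697, adjusted p = 0.75). The Spearman values were 0.886 (exact permutation p = 0.0333, adjusted p = 0.15), 0.771 (exact permutation p = 0.103, adjusted p = 0.308) and 0.143 (exact permutation p = 0.803, adjusted p = 0.903). No relation passed the adjustment, and r was 0.522 for PHYB1 and 0.577 for PHYB2 without CTRL 1 and RNAi 3, so both rest in part on these libraries. On the first component, which held 35.4% of the variance, Pearson's r was -0.462 for PHYA, -0.055 for PHYB1 and -0.253 for PHYB2 (exact permutation p = 0.431, 0.694 and 0.558, adjusted p = 0.75 each). The corresponding Spearman values were 0.029, -0.2 and -0.429 (exact permutation p = 1.0, 0.714 and 0.419, adjusted p = 1.0, 0.903 and 0.903). Without CTRL 3 and RNAi 2, the farthest on that component, Pearson's r was 0.476, 0.509 and 0.491, and thus of the opposite sign. The part of this structure in the PHYB levels was not tested.

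The balance of the PHYB paralogs was followed as the share of PHYB1 in the counts of both, which needs no scaling between libraries. PHYB1 made up 46.4%, 41.2% and 39.3% of the PHYB counts in CTRL 1, 2 and 3 and 45.1%, 45.8% and 40.8% in RNAi 1, 2 and 3. PHYB2 thus gave more counts than PHYB1 in each library, and the groups overlapped. Gene length was not used here, so these shares compare libraries and do not show which paralog has more transcripts. The mean share was 42.3 ± 3.70% in CTRL and 43.9 ± 2.68% in RNAi (SD, n = 3 each). The difference of 1.57 percentage points was smaller than the spread within either group (exact two-sided permutation p = 0.70, adjusted p = 0.80 over both balances). With 3 against 3 libraries this test cannot go below 0.10, and its inversion gives a 90% interval from -5.63 to 6.47 percentage points.

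The PHYB1 share was lower in the plants with more PHYB2 transcript. In order of rising PHYB2 level, from CTRL 1 through RNAi 2, RNAi 1, CTRL 2 and RNAi 3 to CTRL 3, the share was 46.4%, 45.8%, 45.1%, 41.2%, 40.8% and 39.3%. It was lower at each step, and the order mixes the genotypes. The counts of PHYB2 enter both the level and the share, so this order is a description and no test of a relation. The exact 95% binomial intervals of neighbours in the order overlapped. Those of CTRL 1 (41.8% to 51.2%) and CTRL 3 (36.5% to 42.2%), the ends of the order, overlapped too. Only those of RNAi 2 (42.3% to 49.3%) and CTRL 3 did not, by a narrow margin.

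PHYA was compared with the PHYB genes in the same way, as its share in the counts of the 3 phytochrome genes. It made up 50.2%, 38.4% and 33.3% in CTRL 1, 2 and 3 and 42.9%, 38.2% and 37.3% in RNAi 1, 2 and 3. CTRL 1 was highest and CTRL 3 lowest, so the RNAi plants again lay within the range of wild type. The means of 40.7 ± 8.67% in CTRL and 39.5 ± 3.02% in RNAi (SD, n = 3 each) differed by -1.18 percentage points (exact two-sided permutation p = 0.80, adjusted p = 0.80, 90% interval from -12.9 to 9.60). Without CTRL 1 the difference was 3.61 points in the opposite direction.

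**Figure D3:**
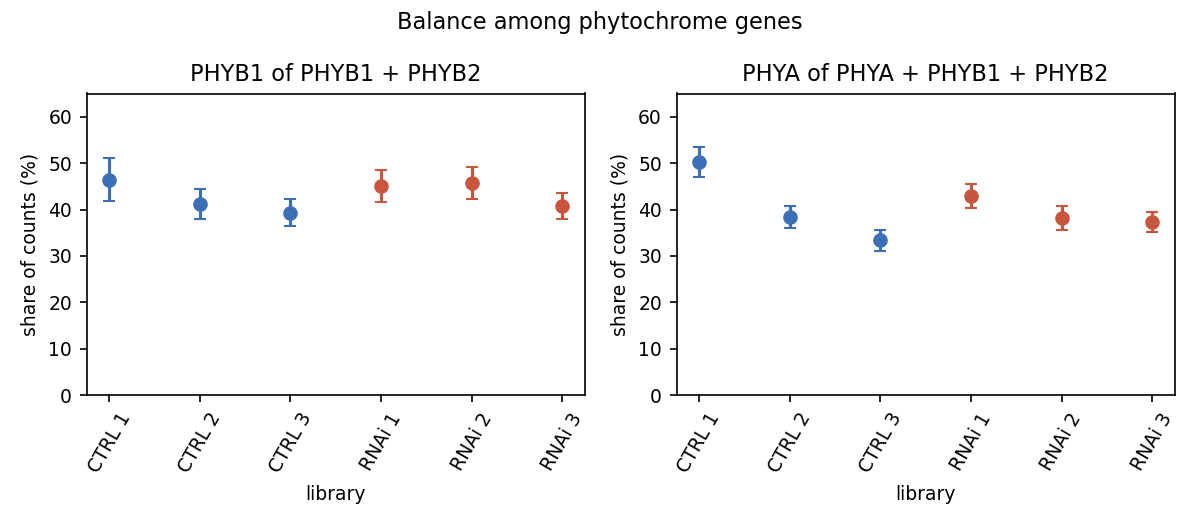
Share of PHYB1 in the counts of both PHYB genes (left) and of PHYA in the counts of the 3 phytochrome genes (right), in percent on the y axis, for each library on the x axis, with exact 95% binomial intervals that cover counting error only. In both panels the CTRL libraries (blue) span the range of the RNAi libraries (red), from 39.3% to 46.4% on the left and from 33.3% to 50.2% on the right.

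Counts on the strand opposite to the phytochrome genes were few in either genotype. Over the 3 libraries of a group PHYA had 4 opposite-strand counts in CTRL and 1 in RNAi, PHYB1 likewise 4 and 1, and PHYB2 2 and 2. No library had more than 2 such counts for a gene. The pooled shares of both strands were 0.246% and 0.0545% for PHYA, 0.379% and 0.0810% for PHYB1, and 0.134% and 0.124% for PHYB2 in CTRL and RNAi. Their exact 95% binomial intervals overlapped between the groups for each gene, with upper ends from 0.303% to 0.968%. These intervals pool the reads of 3 plants and leave out the spread between plants, so they do not test the genotypes. Over all genes the opposite strand held 1.67%, 1.75% and 1.82% of the counts in CTRL 1, 2 and 3 and 1.65%, 1.63% and 1.59% in RNAi 1, 2 and 3. All RNAi libraries were thus below all CTRL libraries in this share over all genes, and its part in the counts of PHYA and PHYB1 was not tested. None of the 3 genes had enough opposite-strand counts to be tested. For each gene and library the unstranded count equalled the sum of both strands, so no read of these genes was lost to a listed gene on the opposite strand.

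The neighbourhoods of the phytochrome genes held no called gene either, where only 0.00400% of all tested genes were called. By the order of identifiers PHYA lies near the start of chromosome 13, with 1 tested gene listed before it, and the 11 tested genes around it had log2 fold changes between -0.33 and 0.12. Around PHYB1, 10 of 20 tested neighbours were higher and 10 lower in RNAi, with a median log2 fold change of -0.01. Around PHYB2 the values of 20 neighbours spread more widely, from -1.14 to 1.19 with a median of -0.13, and 4 had an unadjusted p under 0.05 in edgeR, against 0 around PHYA and 0 around PHYB1. Over the 51 neighbours these 4 are 7.84%, near the 5.64% of all tested genes.

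The genes whose log2 CPM over the 6 libraries was most like each member were found among all tested genes. For PHYA they were Potri.019G130900 and Potri.007G049000, with Pearson's r of 0.998 and 0.993. For PHYB1 they were Potri.009G052400 (0.995) and Potri.017G038100 (0.991), and for PHYB2 Potri.006G199200 (0.995) and Potri.015G058200 (0.994). These genes lie on 6 chromosomes, none of them that of a phytochrome gene, and the files do not name them. A correlation over 0.9 with PHYA was found for 195 other genes, with PHYB1 for 272 and with PHYB2 for 379, which is 0.780%, 1.09% and 1.52% of the 24990 other genes tested. How many would pass 0.9 by chance over 6 libraries was not tested. The named genes are the highest of 24990 correlations each, so they describe these libraries and do not show shared regulation.

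**Figure D4:**
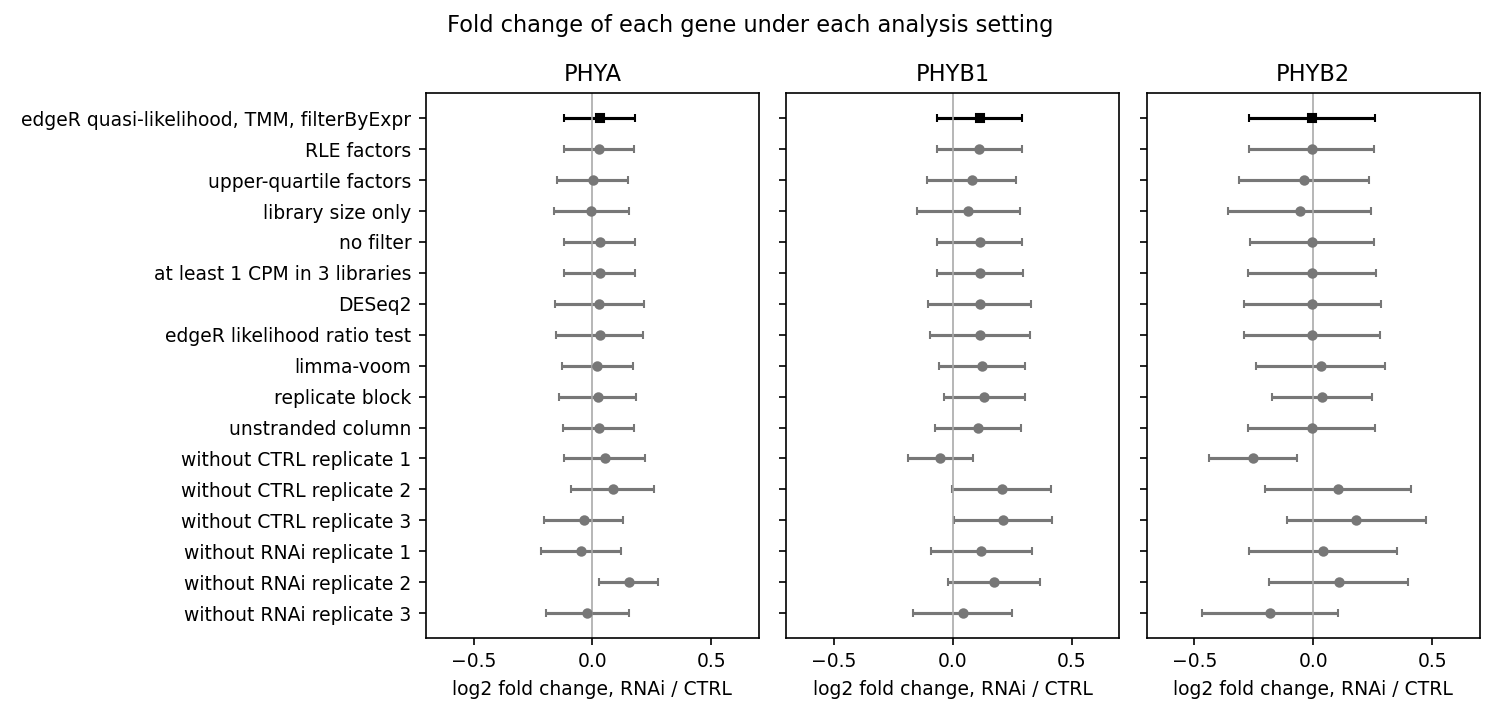
Log2 fold change of RNAi against CTRL (x axis, with SE bars) for PHYA, PHYB1 and PHYB2 under each analysis setting (y axis), with the reported fit as a black square at the top. All values lie between -0.25 and 0.21, and the largest shifts come from leaving out single plants.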

How the data were processed

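The authors deposited raw gene counts for each of the 6 libraries, in an unstranded, a forward and a reverse column, per the file headers. The libraries were poly(A)-selected, paired-end and stranded, per the labels' protocols. STAR is named in the submitters' processing notes, without a version, and the build and gene models are likewise not given in the sources used here. The analysis rests on the reverse column, which holds the sense reads of such a kit. Summary lines that name no gene (11.7% to 13.1% of the reads of a library) were left out. They include the multimapping reads, which were 3.43% to 3.88% of all reads of a library.

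RNAi was compared with CTRL over all genes by edgeR 4.0.16 (R 4.3.3) with TMM factors, the filterByExpr filter and the robust two-sided quasi-likelihood test, called at a Benjamini-Hochberg adjusted p under 0.05, and checked on simulated data. SE was derived from the fold change and its F statistic. Log2 CPM used a prior count of 2. Balances and correlations were tested by exact permutation (scipy 1.17.1). Poisson and binomial intervals cover counting error only. For a count of 0 a floor of 3 counts (0.173 to 0.260 CPM) was set, which is not the upper end of these intervals.

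Alternatives were DESeq2 1.42.0, limma-voom (limma 3.58.1), the likelihood ratio test, other factors and filters, the unstranded column, the replicate block and leaving out each library. The members and lists were chosen with earlier results of these data known, and the correlations, the ranges without single libraries, the neighbours and the order by PHYB2 level were added after seeing the data. The named genes are the 3 members and the 2 genes most correlated with each. Lists of light-signalling genes, markers and DDM1 needed gene names and were not analysed here, and neither were levels per gene length or sequences.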

Additional observations from a re-analysis of the deposited data

How the results depend on the processing

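No phytochrome gene was called under any of the 16 alternatives to the reported fit, with adjusted p from 0.945 to 0.9998 for PHYA, 0.868 to 0.9998 for PHYB1 and 0.722 to 0.9998 for PHYB2 over edgeR, DESeq2 and limma-voom. Directions were not stable, as fits near 0 allow. PHYA turned to -0.0047 (log2 fold change) with library size as the only scaling, and PHYB2 turned to 0.0303 by limma-voom and 0.0358 with the replicate block. With 1 library left out the log2 fold change lay between -0.0485 and 0.1522 for PHYA, -0.0521 and 0.2092 for PHYB1 and -0.2536 and 0.1811 for PHYB2. The PHYB1 share difference lay between 0.0698 and 3.64 percentage points in the same way, and that of the PHYA share between -4.84 and 3.61. The opposite-strand shares moved by less than the spread between replicates. Calls over all genes numbered 0 with library size only, with at least 1 CPM in 3 libraries and with the replicate block, 2 by limma-voom, 38 by DESeq2, 61 by the likelihood ratio test, and between 0 and 7 with 1 library left out. The cause was not tested. Same-numbered libraries showed correlations of 0.237, -0.018 and -0.025 in their deviations from the group mean. Those of libraries with different numbers ran from -0.405 to 0.416, so no pairing by number was visible. With 3 libraries in a group these values cannot exclude a pairing, which was not tested. Shares per coding length and the alternatives for gene lists were not run, for lack of lengths and names. CTRL 1, on which the spread of both PHYB genes in CTRL rests, was the shallowest library and had the lowest TMM factor (0.933).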
